A study of Mus musculus with 4 samples.

Results

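The genes described here are 9 members of the matrix metalloproteinase system in mouse bone marrow macrophages (BMMs), namely the metalloproteinases Mmp8, Mmp9, Mmp12, Mmp13, Mmp14 and Mmp19 and the tissue inhibitors of metalloproteinases Timp1, Timp2 and Timp3. They were taken by gene name from a deposited table of 34745 genes, and all 9 passed the filter on low counts. RNA was sequenced from BMMs of 8 weeks old male C57BL/6 mice, all wild type (wt) and starved of serum for 12 h before RANKL was added at 100 ng/mL for 24 h. In addition, 2 libraries received dimethyl itaconate (RANKL+DI) and 2 received vehicle (RANKL+Veh), which the sample titles name as DMSO. Both groups thus carry RANKL, and no library without it was analysed here. The labels give the dose of DI as 20 mM and the paper's methods as 20 μM. RANKL is the cytokine that drives macrophages toward osteoclasts, and DI is a cell-permeable ester of itaconate, a metabolite that activated macrophages make from the citric acid cycle. Nothing in the labels says whether the replicates came from separate mice or cultures, so the p-values measure only the spread between these samples, which may be technical.

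Matrix metalloproteinases (MMPs) are zinc proteases that cut collagens, elastin, gelatin and other matrix proteins. Most are secreted as inactive proenzymes that other proteases must cut, while Mmp14 sits in the cell membrane. The TIMPs bind the active site of MMPs and block it, and Timp2 also helps Mmp14 to activate pro-Mmp2 at the cell surface. In bone, osteoclasts use Mmp9 and Mmp14 beside the acid protease cathepsin K, and macrophages are the textbook source of Mmp12.

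The libraries held between 16085692 and 19403480 counts. Levels are given as CPM, or counts over the library total, on the TMM scale, on which 3 counts correspond to 0.160 to 0.180 CPM. Levels of different members are compared per length, as FPKM, in which counts are divided by the gene length and the library total. Sums over marker lists and the highest gene of a list are by CPM, which is not corrected for gene length. Differences are log2 fold changes of RANKL+DI over RANKL+Veh from edgeR's quasi-likelihood test, with Benjamini-Hochberg adjustment over all 12590 tested genes, and a gene was called at an adjusted p under 0.05. Of the macrophage markers, all 8 were tested, and their summed level was 28424 and 29238 CPM with DI and 23108 and 22245 CPM with vehicle. By far the largest part was Lyz2, at 22758 and 23770 CPM with DI and 18276 and 17617 CPM with vehicle. The osteoclast marker Calcr, the calcitonin receptor, had no count in any library, and the osteoclast list summed to 700 and 687 CPM with DI and 673 and 654 CPM with vehicle. Most of that sum was Atp6v0d2, a proton pump subunit, and without it the list summed to 191 and 178 CPM with DI and 246 and 237 CPM with vehicle, so the direction turned. In bulk RNA, fewer cells of a type and less RNA per cell cannot be told apart.

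Members with a RefSeq entry for the stretch upstream of the gene start are shown by sequence, so that the genes that moved in opposite directions can be read side by side. Upstream sequences were available here for 7 of the 9 members. The first 3 belong to the chromosome 9 genes that were higher with DI, and the last to Mmp14, which was lower. They lie on GRCm38.p6, all on the plus strand, and capitals mark a match to the AP-1 motif TGANTCA on either strand.
Mmp13, chr9:7272264-7272513: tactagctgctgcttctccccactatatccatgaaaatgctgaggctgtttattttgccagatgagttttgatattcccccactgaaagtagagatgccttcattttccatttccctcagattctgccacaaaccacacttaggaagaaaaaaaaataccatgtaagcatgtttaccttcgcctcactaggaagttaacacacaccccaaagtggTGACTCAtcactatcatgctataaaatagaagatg
Mmp12, chr9:7344147-7344380: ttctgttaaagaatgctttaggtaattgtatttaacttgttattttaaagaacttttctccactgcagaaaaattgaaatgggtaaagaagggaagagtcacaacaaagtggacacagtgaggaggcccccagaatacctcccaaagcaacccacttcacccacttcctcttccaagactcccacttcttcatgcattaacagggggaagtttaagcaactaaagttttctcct
Mmp8, chr9:7558179-7558428: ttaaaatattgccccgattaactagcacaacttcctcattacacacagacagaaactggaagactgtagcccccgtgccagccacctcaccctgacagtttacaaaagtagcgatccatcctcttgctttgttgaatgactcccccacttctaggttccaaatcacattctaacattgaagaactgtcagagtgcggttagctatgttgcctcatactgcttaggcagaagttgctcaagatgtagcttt
Mmp14, chr14:54431348-54431597: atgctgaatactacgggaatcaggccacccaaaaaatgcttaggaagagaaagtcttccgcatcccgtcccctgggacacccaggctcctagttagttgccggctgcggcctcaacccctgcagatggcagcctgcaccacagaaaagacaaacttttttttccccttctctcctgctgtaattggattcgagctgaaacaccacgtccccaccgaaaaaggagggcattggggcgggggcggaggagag

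The Mmp13 window held 1 AP-1 match, the letters TGACTCA, which began 35 bases before the end of the window. Of 32851 upstream windows of exactly 250 bases in the same table, without those of chromosome 18, 6.75% held such a match. The printed Mmp12 window has 234 bases and that of Timp3 210, so both are shorter than these. The windows printed for Mmp12, Mmp8 and Mmp14 held none, and a second Mmp12 entry, at chr9:7347124-7347373, held 1, with the letters TGAGTCA. That entry lies inside the deposited Mmp12 gene, which starts at 7344381. The ETS core GGAA, on either strand, was found 5 times in the Mmp13 window, 4 times in the Mmp12 window, 3 times in the Mmp8 window and 4 times in the Mmp14 window, and 93.4% of all windows held it at least once. The NFAT letters GGAAAN, which contain the ETS core, occurred 2 times at Mmp13, 1 time at Mmp14, 1 time at Timp1 and in 55.5% of all windows. The NF-kB letters GGGNNNNNCC occurred 1 time at Mmp12, 4 times at Timp1, where 3 matches overlap, 1 time at Timp3 and in 45.8% of all windows. A match describes the letters of the window and was not tested as a binding site.

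With DI, 4 of the 6 MMP members rose, namely Mmp8, Mmp12, Mmp13 and Mmp19, and 2 fell, namely Mmp9 and Mmp14. None of the 3 TIMPs was called. Over all tested genes 14.8% were called, with 7.14% higher and 7.70% lower, and these shares are the background against which 6 of 9 members stand. When libraries were scaled by their size only, 548 genes were called higher and 1932 lower, against 899 and 969 with TMM factors, and the median over all tested genes moved from 0.00 to -0.10 on the log2 scale. The direction and the call of the 6 MMPs were kept under both scalings. In 8 of 9 members the CPM of the groups did not overlap, which held for 58.6% of all tested genes.

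**Figure D1:**
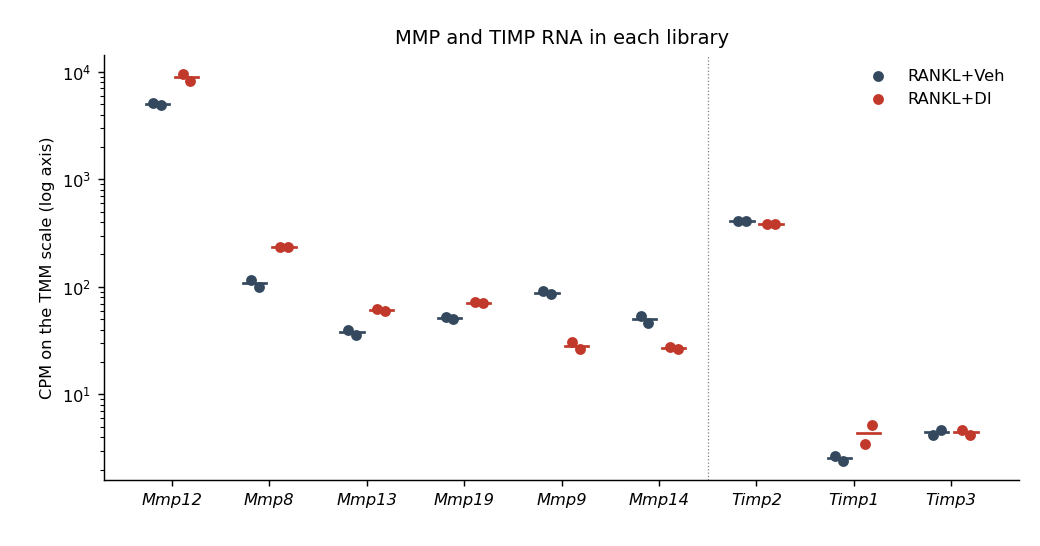
Level of each of the 9 members in the 4 libraries, as CPM on the TMM scale on a log axis, with red points for the 2 RANKL+DI libraries, dark points for the 2 RANKL+Veh libraries, a line at each group mean and the TIMPs to the right of the dotted line. The groups are apart for every gene but Timp3, whose means are both 4.46 CPM.

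Mmp9, or gelatinase B (ENSMUSG00000017737, chromosome 2, 164940780 to 164955850, plus strand), showed the largest difference of the 9 members. Its level was 30.5 and 26.5 CPM in the RANKL+DI libraries and 90.8 and 86.2 CPM in the RANKL+Veh libraries. Both DI libraries lay far below both vehicle libraries. The means were 28.5 ± 2.84 CPM (SD, n = 2) with DI and 88.5 ± 3.30 CPM (SD, n = 2) with vehicle, and the level with vehicle was 3.11-fold that with DI. The fitted log2 fold change was -1.64 (SE 0.09, 95% interval -1.85 to -1.42, adjusted p = 0.000540 in edgeR's quasi-likelihood test). Among the genes called lower, Mmp9 ranked 35 by the size of its change.

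Mmp14, the membrane-bound MT1-MMP that cuts fibrillar collagen at the cell surface (ENSMUSG00000000957, chromosome 14, 54431612 to 54441265, plus strand), was also lower. It measured 27.8 and 26.2 CPM with DI and 53.1 and 46.4 CPM with vehicle. The higher DI library was well under the lower vehicle library. The means were 27.0 ± 1.17 and 49.7 ± 4.68 CPM (SD, n = 2 each), a level 1.84-fold higher with vehicle. On the log2 scale it fell by 0.88 (SE 0.09, edgeR quasi-likelihood adjusted p = 0.00298), and it ranked 131 among the genes called lower.

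Mmp8, the collagenase first known from neutrophils (ENSMUSG00000005800, chromosome 9, 7558429 to 7568486, plus strand), rose most. Its level was 236 and 234 CPM with DI and 116 and 99.7 CPM with vehicle. The 2 DI libraries were nearly equal and each lay above both vehicle libraries. The means of 235 ± 1.52 and 108 ± 11.3 CPM (SD, n = 2 each) differed 2.18-fold, with a log2 fold change of 1.12 (SE 0.07, 95% interval 0.94 to 1.30, edgeR quasi-likelihood adjusted p = 0.000845). It ranked 63 among the genes called higher. Of the 11 neutrophil markers, Ly6g and Retnlg had no count in any library, the whole list summed to between 10.8 and 11.5 CPM with DI and between 9.39 and 11.5 CPM with vehicle, and 0 of the 4 tested members were called by edgeR, by DESeq2 or by limma-voom (1 had an unadjusted p under 0.05 in edgeR). The neutrophil markers with the highest mean CPM, S100a8 and S100a9, had log2 fold changes of 0.51 (adjusted p = 0.161) and 0.21 (adjusted p = 0.604) in edgeR. The other tested neutrophil markers, Ngp and Ltf, were at -0.65 (adjusted p = 0.198) and -0.09 (adjusted p = 0.921) in edgeR.

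Mmp13, the main collagenase of bone and cartilage (ENSMUSG00000050578, chromosome 9, 7272514 to 7283333, plus strand), was at 62.5 and 59.3 CPM with DI and 40.1 and 36.1 CPM with vehicle. Both DI libraries were higher, with a gap between the groups wider than either group's range. The means of 60.9 ± 2.27 and 38.1 ± 2.84 CPM (SD, n = 2 each) gave a 1.60-fold difference and a log2 fold change of 0.68 (SE 0.08, edgeR quasi-likelihood adjusted p = 0.00439). The summed FPKM of the collagenases Mmp8 and Mmp13 was 115 and 114 with DI and 64.4 and 56.1 with vehicle.

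Mmp12, the macrophage elastase (ENSMUSG00000049723, chromosome 9, 7344381 to 7369499, plus strand), had by far the highest FPKM of the members. It measured 9530 and 8224 CPM with DI and 5097 and 4881 CPM with vehicle. The DI libraries differed from each other more than the vehicle libraries did, and the groups did not overlap. Means of 8877 ± 924 and 4989 ± 153 CPM (SD, n = 2 each) differed 1.78-fold, with a log2 fold change of 0.83 (SE 0.07, 95% interval 0.66 to 1.003, edgeR quasi-likelihood adjusted p = 0.00186). By mean FPKM over the 4 libraries Mmp12 ranked 48 of all 34745 genes, and it took 0.917% and 0.795% of all counts with DI and 0.528% and 0.506% with vehicle.

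Mmp19, a secreted MMP that cuts basement membrane proteins (ENSMUSG00000025355, chromosome 10, 128790953 to 128800824, plus strand), moved least among the called members. Its level was 71.9 and 70.2 CPM with DI and 52.2 and 50.8 CPM with vehicle. Replicates lay close together in both groups and the groups were clearly apart. The log2 fold change was 0.47 (SE 0.06, edgeR quasi-likelihood adjusted p = 0.00597), a 1.38-fold difference. Of its exon length, 22.3% is shared with Tmem198b on the opposite strand, which had between 100 and 201 counts per library against 846 to 1318 for Mmp19, and a log2 fold change of 0.30 with an adjusted p of 0.538 in edgeR's quasi-likelihood test. How the authors' counting treated strand is not given in the sources used here, so reads of the overlap could belong to either gene.

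Of the inhibitors, Timp2 (ENSMUSG00000017466, chromosome 11, 118301069 to 118355740, minus strand) was by far the most abundant by FPKM. It was at 380 and 384 CPM with DI and 406 and 409 CPM with vehicle, so the groups did not overlap, and the difference was small. The log2 fold change was -0.09 (SE 0.03, 95% interval -0.18 to -0.01, unadjusted p = 0.0387, adjusted p = 0.142 in edgeR's quasi-likelihood test). With libraries scaled by size only it was called, at -0.20 with an adjusted p of 0.0142.

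Timp1 (ENSMUSG00000001131, chromosome X, 20870166 to 20874735, plus strand) was scarce, with 60 and 98 counts in the DI libraries and 50 and 40 in the vehicle libraries. These correspond to 3.49 and 5.22 CPM with DI and 2.68 and 2.40 CPM with vehicle. The DI libraries lay apart from each other by more than the gap to the vehicle group. The log2 fold change of 0.78 had a 95% interval of 0.15 to 1.41 and an adjusted p of 0.101 in edgeR's quasi-likelihood test. Without RANKL+DI replicate 1 it was 1.04 with an adjusted p of 0.0422, without RANKL+DI replicate 2 it was 0.46, and with no filter on low counts 0.78 with an adjusted p of 0.0498.

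Timp3 (ENSMUSG00000020044, chromosome 10, 86300372 to 86349506, plus strand) had 81 and 79 counts in the DI libraries and 79 and 78 in the vehicle libraries. The groups overlapped, with 4.72 and 4.21 CPM against 4.24 and 4.68 CPM. Its log2 fold change was 0.00 with a 95% interval of -0.41 to 0.41 (edgeR quasi-likelihood adjusted p = 0.996), and with library size only it was -0.10. Of its exon length, 21.3% is shared with Syn3 on the opposite strand, which as a whole gene had at most 3 counts in any library. Reads of the shared stretch were not counted apart. For the 3 TIMPs together, DESeq2 and limma-voom also called 0, and 2 of 3 had an unadjusted p under 0.05 in edgeR.

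**Figure D2:**
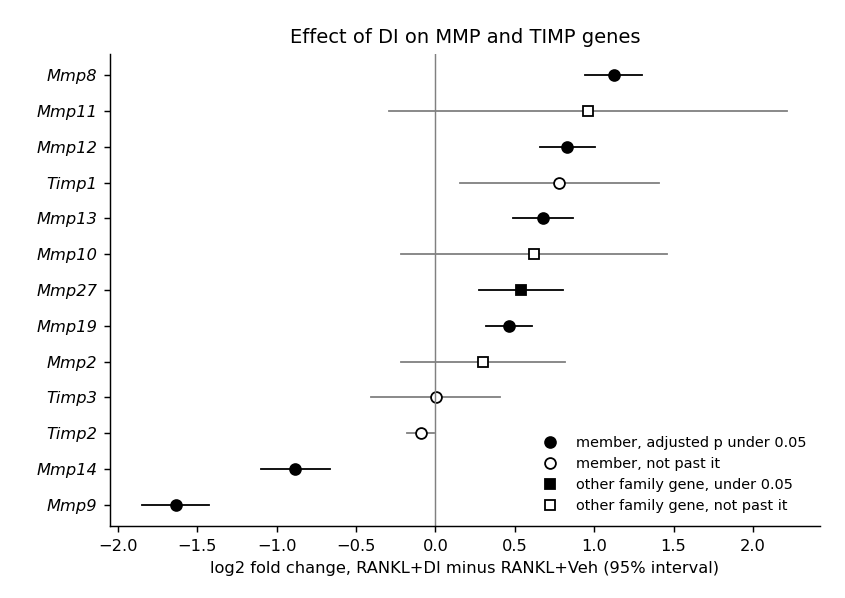
Log2 fold change of RANKL+DI over RANKL+Veh from edgeR's quasi-likelihood fit for the 9 members (circles) and the 4 other tested family genes (squares), with bars for the 95% interval and filled symbols for an adjusted p under 0.05. Mmp8, Mmp12, Mmp13 and Mmp19 lie to the right of 0, Mmp9 and Mmp14 to the left, and the interval of Timp3 runs from -0.41 to 0.41.

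Ordered by FPKM in the RANKL+DI libraries, Mmp12 (mean 860) was followed by Mmp8 (92.3), Timp2 (90.1), Mmp13 (22.0), Mmp19 (20.1), Mmp9 (6.97), Mmp14 (4.51), Timp1 (3.04) and Timp3 (0.477). No neighbours in this order overlapped between their 2 libraries. With vehicle the order was Mmp12 (520), Timp2 (103), Mmp8 (45.5), Mmp9 (23.3), Mmp19 (15.6), Mmp13 (14.7), Mmp14 (8.93), Timp1 (1.90) and Timp3 (0.512), and only Mmp19 and Mmp13 overlapped. Mmp8 thus stood above Timp2 with DI and below it with vehicle, and Mmp9 stood below Mmp13 and Mmp19 with DI and above both with vehicle.

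The summed FPKM of the 6 MMP members was 1069 and 943 with DI and 645 and 611 with vehicle. Mmp12 made up 86.2% and 84.7% of that sum with DI and 82.4% and 83.2% with vehicle, so the sum follows Mmp12 closely. Without Mmp12 the sums were 147 and 144 with DI and 114 and 102 with vehicle. The 3 TIMPs summed to 92.4 and 94.9 FPKM with DI and 105 and 106 FPKM with vehicle, of which Timp2 was between 95.7% and 97.8% in every library. On a scale of CPM per kilobase with TMM factors the TIMP means were 97.1 and 102, closer together than in FPKM. The ratio of the MMP sum to the TIMP sum was 11.6 and 9.94 with DI and 6.11 and 5.77 with vehicle. Without Mmp12 it was 1.59 and 1.52 against 1.08 and 0.968. These sums are descriptions over RNA levels, with no test.

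Ratios between pairs of members are given as a description, since the pairs were chosen after the values were seen. The FPKM ratio of Mmp12 to Mmp9 was 124 and 123 with DI and 22.2 and 22.4 with vehicle, a 5.52-fold difference. The ratio of Mmp8 to Mmp9 was 12.4 and 14.2 with DI and 2.05 and 1.86 with vehicle. The ratio of Mmp9 to Timp1, the inhibitor known to bind pro-Mmp9, was 3.06 and 1.78 with DI and 11.9 and 12.6 with vehicle. The ratio of Mmp14 to Timp2 was 0.0519 and 0.0483 with DI and 0.0926 and 0.0805 with vehicle. In each of these ratios both DI libraries lay on the same side of both vehicle libraries.

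**Figure D3:**
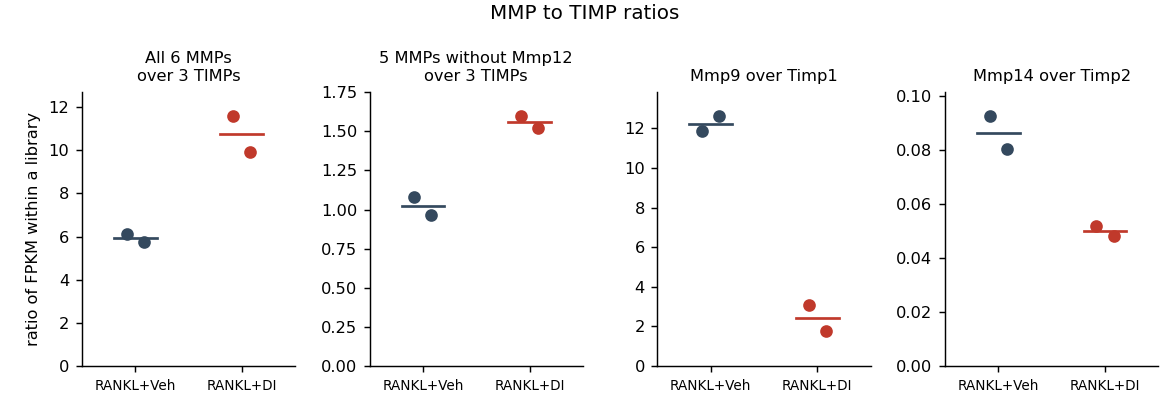
FPKM ratios within each library, of the 6 MMPs to the 3 TIMPs with and without Mmp12, of Mmp9 to Timp1 and of Mmp14 to Timp2, each panel with its own linear axis from 0, with points for the 2 RANKL+DI and 2 RANKL+Veh libraries and a line at each group mean. The ratio of MMP to TIMP FPKM was 9.94 and 11.6 with DI against 5.77 and 6.11 with vehicle.

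Mmp8, Mmp12 and Mmp13 lie in the MMP gene cluster of chromosome 9, which spans 427 kb from 7272514 to 7699585 and holds 10 MMP genes in the deposited table. Of these, 5 were tested and 4 were called higher, namely Mmp13, Mmp12, Mmp8 and Mmp27, and 0 lower. Over all tested genes, 7.14% were called higher and 7.70% lower. Mmp13, Mmp12 and Mmp8 are members already counted above. The call of Mmp27 was lost with DESeq2 and with the replicate number as a block. Mmp10, or stromelysin 2, was the other tested gene, with 50 and 37 counts under DI and 36 and 20 under vehicle, and a log2 fold change of 0.62 (adjusted p = 0.285 in edgeR's quasi-likelihood test). Mmp3, Mmp1a, Mmp20 and Mmp7 had no count in any library, and Mmp1b had 1 count in 1 library. Mmp3 and Mmp1a, without any read, lie between the called genes Mmp12 and Mmp8. Within 500 kb on either side, 7 other genes were tested, of which 0 were called higher and 1, the apoptosis inhibitor Birc3, lower (log2 fold change -0.31, edgeR quasi-likelihood adjusted p = 0.0127). Mmp9, Mmp14 and Mmp19 lie on other chromosomes, and of those 3 only Mmp19 rose.

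**Figure D4:**
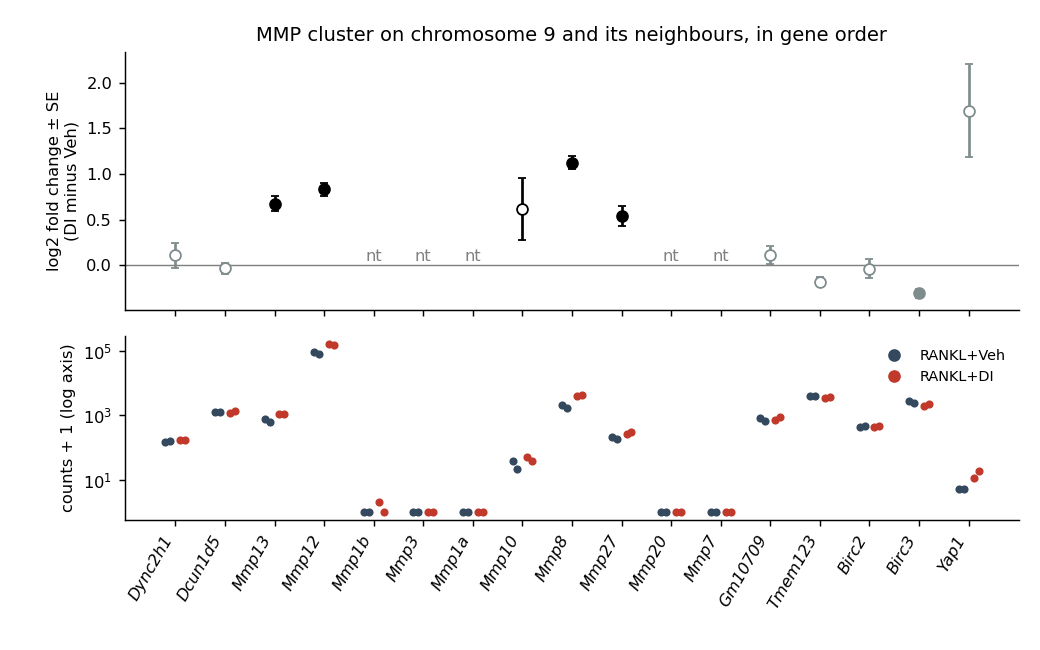
Genes of the chromosome 9 MMP cluster and its flanks in genome order, with log2 fold change and SE in the upper panel and counts + 1 per library on a log axis in the lower, black for MMP genes, grey for neighbours, filled points for an adjusted p under 0.05 and nt for genes not tested. Mmp13, Mmp12, Mmp8 and Mmp27 lie above 0, and Yap1, at 4 to 17 counts per library, carries the widest error.

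Of the other 18 genes of the MMP and TIMP family, 6 had no count, 8 had too few counts to be tested and 4 were tested. Mmp27, a stromelysin-type member next to Mmp8, had 259 and 314 counts under DI and 207 and 180 under vehicle. Its log2 fold change was 0.54 (SE 0.11, adjusted p = 0.0258 in edgeR's quasi-likelihood test). That call was lost with DESeq2 (adjusted p = 0.0618) and with the replicate number as a block (0.0600, edgeR). It was also lost without RANKL+DI replicate 2 (adjusted p = 0.0975), without RANKL+Veh replicate 1 (0.0780) and without RANKL+Veh replicate 2 (0.0926) in edgeR. Mmp2, the gelatinase that Mmp14 and Timp2 activate together, had 57 and 53 counts under DI and 48 and 40 under vehicle, with a log2 fold change of 0.30 (adjusted p = 0.399, edgeR). Mmp11, which shares 5.58% of its exon length with Chchd10 on the opposite strand, had 4 to 16 counts per library and a log2 fold change of 0.96 (adjusted p = 0.271, edgeR). Of the gelatinase FPKM, Mmp9 made up 87.6% and 87.8% with DI and 96.4% and 96.5% with vehicle. The 8 genes under the filter were Mmp25 with 7 to 12 counts, Mmp23 with 2 to 7, Mmp28 with 0 to 9, Mmp17 with 0 to 7, and Mmp15, Mmp16, Mmp24 and Mmp1b with at most 2 counts in any library.

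Proteases and partners that activate or anchor MMPs were tested in 12 of 19 cases. Of these 5 rose and 3 fell, a share of 66.7% beside the 14.8% of all tested genes. With library size only, 3 rose and 3 fell, and the calls of Furin and Plau were lost. That of Furin was also lost with DESeq2, with the replicate number as a block and with any 1 library left out. When 1 library was left out, the call of Cd44, which was lower, was kept only without RANKL+Veh replicate 1. The median log2 fold change was 0.13 beside 0.00 over all tested genes. Cathepsin K (Ctsk), which activates pro-Mmp9 and is the chief collagenase of osteoclasts, fell by 0.58 on the log2 scale (edgeR adjusted p = 0.00659). The integrin chains of the vitronectin receptor moved in opposite directions, with Itgav at -0.57 (adjusted p = 0.00275) and Itgb3 at 0.56 (adjusted p = 0.00815) in edgeR. The urokinase receptor Plaur rose by 0.48 (adjusted p = 0.00517) and cathepsin B (Ctsb), the highest of its list by mean CPM, by 0.34 (adjusted p = 0.00298) in edgeR.

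Of the 14 inhibitors outside the TIMP family and receptors that clear MMPs, 8 were tested, 3 rose and 0 fell, with a median of 0.22. This is a share of 37.5% beside the 14.8% of all tested genes. Thrombospondin 1 (Thbs1), which binds MMPs, rose by 0.39 on the log2 scale (adjusted p = 0.0395), and the clearance receptor Lrp1, the highest of its list by mean CPM, by 0.20 (adjusted p = 0.0267) in edgeR. Both calls were lost with library size only, where Thbs1 had an adjusted p of 0.0771 and Lrp1 of 0.140. That of Thbs1 was lost with DESeq2, and both calls were lost with the replicate number as a block. They were also lost without RANKL+DI replicate 1 (adjusted p = 0.163 and 0.0896) and without RANKL+Veh replicate 1 (0.106 and 0.0700), and that of Thbs1 without RANKL+Veh replicate 2 (0.123), all in edgeR.

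Among 25 ADAM and ADAMTS metalloproteinases, relatives that the TIMPs also inhibit, 14 were tested and 1, Adam15, rose, by 0.24 on the log2 scale (edgeR adjusted p = 0.0185). The share called was 7.14%, below the 14.8% of all tested genes. With library size only, Adam15 was no longer called (adjusted p = 0.0779) and Adam17 was called lower instead, at -0.20 (adjusted p = 0.0162), in edgeR. The call of Adam15 was also lost without RANKL+DI replicate 1 (adjusted p = 0.0622), without RANKL+Veh replicate 1 (0.0560) and without RANKL+Veh replicate 2 (0.0767). Adam8, the highest of its list by mean CPM, had a log2 fold change of 0.03 (edgeR adjusted p = 0.621), which was -0.07 with library size only.

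Of 29 matrix proteins that MMPs cut, 22 were tested, of which 2 rose and 1 fell, a share of 13.6% beside the 14.8% of all tested genes. Osteopontin (Spp1), the highest of its list by mean CPM, rose by 0.25 on the log2 scale (edgeR adjusted p = 0.0391), the laminin chain Lama3 by 0.76 (adjusted p = 0.0290), and the nidogen Nid2 was at -1.01 (adjusted p = 0.0365). Of its exon length, Nid2 shares 8.45% with Rtraf on the opposite strand. Rtraf had 1672 to 1968 counts per library, against 52 to 130 for Nid2, and reads of the shared stretch were not counted apart. Without RANKL+Veh replicate 1 the adjusted p-values of Spp1, Lama3 and Nid2 were 0.0835, 0.127 and 0.105 in edgeR, and without RANKL+Veh replicate 2 they were 0.117, 0.0569 and 0.125. Without RANKL+DI replicate 1 those of Spp1 and Lama3 were 0.0707 and 0.0522, and without RANKL+DI replicate 2 those of Lama3 and Nid2 were 0.0789 and 0.0694. With library size only, that of Spp1 was 0.122. With DESeq2 that of Lama3 was 0.0864, and with the replicate number as a block that of Nid2 was 0.0615 in edgeR.

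Transcription factors with a textbook role at MMP genes were tested in 26 of 28 cases, with 4 higher, 7 lower and a median of -0.05. The share called was 42.3% beside the 14.8% of all tested genes. Jdp2, a repressor of the AP-1 family that is needed for osteoclast formation, changed most and fell by 1.998 on the log2 scale, with means of 26.6 ± 1.76 CPM in the DI group and 106 ± 9.05 CPM in the vehicle group (SD, n = 2 each, edgeR adjusted p = 0.000320). The AP-1 subunit Fos fell by 0.60 (edgeR adjusted p = 0.00115). Cebpb, a macrophage factor, rose by 0.80 (edgeR adjusted p = 0.000580). Of the other calls, named after their values were seen, Fosl2 (-0.57), Nfatc1 (-0.43) and Junb (-0.29) were lower, each also with any 1 library left out. Etv5 (0.40), Tfe3 (0.28) and the AP-1 subunit Jund (0.27) were called higher, so AP-1 subunits were called in both directions. Jund was the only AP-1 subunit called higher, and its call was lost with library size only. It was also lost without RANKL+DI replicate 1 and without RANKL+Veh replicate 2. The call of Etv5 was lost without RANKL+Veh replicate 2, and that of Tfe3 without either vehicle library. Exons of Cebpb overlap Tmem189 on the opposite strand over 20.7% of their length, and Tmem189 was itself higher by 0.52 (edgeR adjusted p = 0.00216). Spi1, or PU.1, the highest of its list by mean CPM, was at -0.04 (adjusted p = 0.586). With library size only the split was 3 higher and 10 lower.

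**Figure D5:**
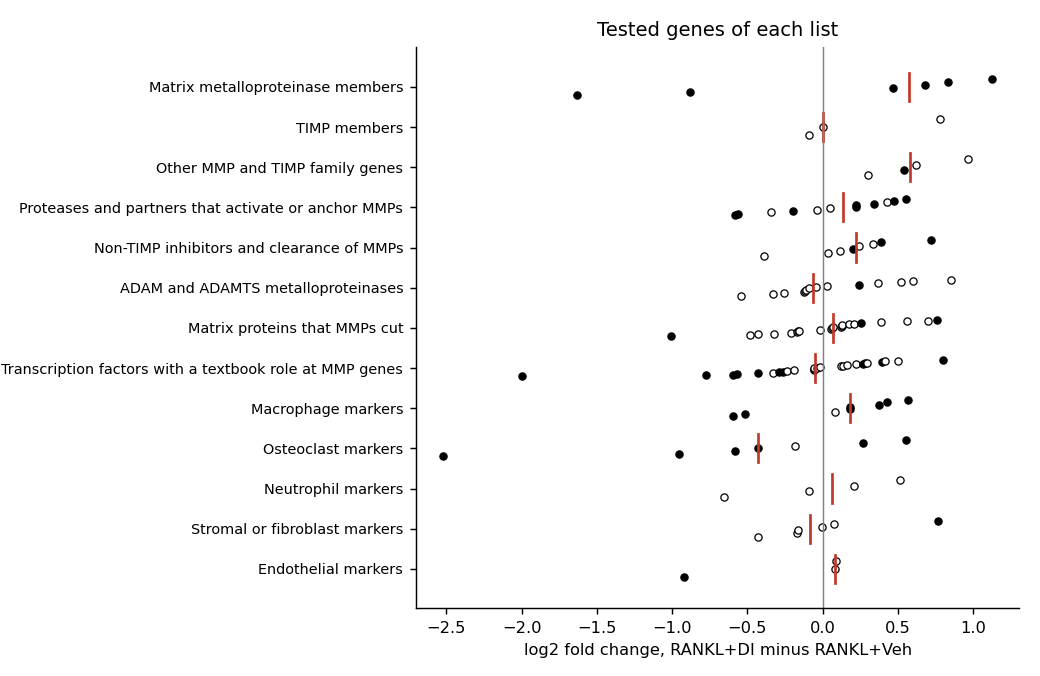
Log2 fold change of every tested gene in the lists of related genes and of markers, 1 point per gene, filled for an adjusted p under 0.05, with a red bar at each list's median. The median is -0.43 for osteoclast markers, 0.18 for macrophage markers and between -0.08 and 0.22 for the other lists outside the MMP and TIMP family. The 4 tested family genes outside the members have a median of 0.58.

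The marker lists were read beside the members. The share of tested genes called was 87.5% for macrophage, 85.7% for osteoclast, 16.7% for stromal and 33.3% for endothelial markers. Over all tested genes it was 14.8%. Of 8 macrophage markers, 5 rose and 2 fell, with Lyz2 at a log2 fold change of 0.37 (adjusted p = 0.00240) and Csf1r at 0.08 (adjusted p = 0.211, and -0.02 with library size only) in edgeR. Those that fell were Fcgr1, at -0.60 (adjusted p = 0.0314), and Cd14, at -0.51 (adjusted p = 0.00475) in edgeR. The call of Fcgr1 was lost with the replicate number as a block. Among the markers that rose, Adgre1 and Cd68 were no longer called with library size only. Of 7 tested osteoclast markers, 2 rose and 4 fell, with Atp6v0d2 at 0.27 (adjusted p = 0.00623) and Nfatc1 at -0.43 (adjusted p = 0.00504) in edgeR. The largest falls of that list, named after their values were seen, were those of the fusion gene Ocstamp, at -2.52 (adjusted p = 0.00240), and of Acp5, the gene of the osteoclast enzyme TRAP, at -0.95 (adjusted p = 0.00248) in edgeR. Its remaining calls were Itgb3, which rose by 0.56 (adjusted p = 0.00815), and Ctsk, at -0.58 (adjusted p = 0.00659) in edgeR. The stromal list summed to 56.3 and 60.4 CPM with DI and 54.3 and 60.5 CPM with vehicle, with Lum and Lepr at 0 counts, Col1a1 at -0.17 (adjusted p = 0.279), Col1a2 at -0.17 (adjusted p = 0.313) and 1 of 6 tested genes called higher in edgeR, namely Acta2. Without RANKL+Veh replicate 2, 0 of them were called. The endothelial list summed to 70.7 and 68.0 CPM with DI and 75.7 and 72.6 CPM with vehicle, with Tek at 0 counts, Kdr at -0.92 (adjusted p = 0.00404) and Vwf at 0.08 (adjusted p = 0.447, and -0.02 with library size only) in edgeR. The part of a changed cell makeup in the values of the members was not tested.

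The genes whose profile over the 4 libraries was most like that of Mmp9 were Cyp2s1, Cmpk2 and Ifit2. Likeness was the Euclidean distance of centred log2 CPM, over 11007 candidate genes, and the distances were 0.176, 0.232 and 0.234. Their log2 fold changes were -1.59, -1.69 and -1.61, beside -1.64 for Mmp9. That these values are close follows from the choice, since likeness was measured over the same libraries.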

How the data were processed

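RNA was measured in 4 BMM libraries, grouped by their labels into 2 per treatment. The authors deposited raw, unnormalized gene counts and FPKM values, and the latter can be rebuilt from counts, gene lengths and totals with a relative deviation of at most 0.000261. The submitters' processing notes name GRCm38 and mm10, and the aligner and counting program are not given in the sources used here. Of 34267 identifiers also in GENCODE M21, 80.8% had the same start and end. A second deposited table with pathway annotations was not used.

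The counts were fitted with edgeR 4.0.16 (R 4.3.3) by quasi-likelihood, with TMM factors, filterByExpr at its defaults and no covariate beside the condition. Adjustment was by Benjamini-Hochberg over 12590 genes. Standard errors were derived from the F statistic, with 2 residual degrees of freedom before moderation. Floors of 3 counts cover counting error only. The 2 libraries of each group differed by more than sampling noise, with chi-square values, divided by their degrees of freedom, of 7.74 for vehicle and 7.57 for DI.

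The members, the lists and the tests were chosen with earlier results of these data known. Named genes were all members, the tested genes of the rest of the family and those with any count, at most the 4 largest calls and the gene with the highest mean CPM of each related list, the 2 markers with the highest mean CPM and markers at 0, and the 3 genes most like Mmp9. Some genes that the rule includes are not reported here. Alternatives were DESeq2 size factors, library size only, no filter, at least 10 counts in every library, DESeq2 1.42.0, limma-voom (limma 3.58.1), the replicate number as a block, and each library left out in turn. Member transcripts were compared with GENCODE M21 by BLAST+ 2.17.0 (95% identity over 20% of a transcript), which matched only the opposite-strand neighbours Tmem198b and Syn3. The upstream sequences shown were cut before the deposited gene start. The second Mmp12 window and the Timp2 window, which are not shown, lie inside the deposited genes. The fit was tested on simulated data, where the share of false calls was above the nominal threshold and most small changes were missed.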

Additional observations from a re-analysis of the deposited data

How the results depend on the processing

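The 6 MMP calls kept their direction and their side of the threshold under every alternative listed for them. Over all of these, log2 fold changes ran from 1.02 to 1.23 for Mmp8, -1.74 to -1.53 for Mmp9, 0.72 to 0.94 for Mmp12, 0.57 to 0.75 for Mmp13, -0.99 to -0.78 for Mmp14 and 0.36 to 0.48 for Mmp19. The count of called members was 6, or 7 with library size only (Timp2 at -0.20), with no filter on low counts (Timp1 at 0.78) and without RANKL+DI replicate 1 (Timp1 at 1.04). With 1 library left out, Timp1 ran from 0.46 to 1.04 and Timp3 from -0.079 to 0.085, and with library size only Timp3 was at -0.10. The library left alone in its group is then assumed to vary like the others. Over all genes the count of calls was 1868, and with 1 library left out 1087 to 1394, lowest without RANKL+Veh replicate 2 (1087) and RANKL+Veh replicate 1 (1120). In the same refits the count was 0 to 1 for the other family genes, 1 to 3 for inhibitors and clearance, 0 to 2 for ADAM and ADAMTS genes, 0 to 1 for matrix proteins and 0 to 1 for stromal markers. Inhibitors and clearance had 1 call with library size only. The other family genes had 0 calls with DESeq2. Among single genes outside the members, Adam8 was at -0.073, Csf1r at -0.022 and Vwf at -0.023 with library size only, and S100a9 ran from -0.019 to 0.46 with 1 library left out. The TIMP sums were 97.1 with DI and 102 with vehicle as CPM per kilobase. With the replicate number as a block, 1389 genes and 6 members were called, with 0 other family genes and 1 gene of the inhibitor list. The labels give same-numbered libraries a shared number and do not say whether they also share a batch or an animal. Their deviations from the group means had a correlation of -0.03 over 12590 genes, which with 2 libraries a group cannot settle this. The cause of these changes was not tested. With 2 libraries a group and 40 to 98 counts, Timp1 and Timp3 were measured with 95% intervals of 0.15 to 1.41 and -0.41 to 0.41.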
